A study of Caenorhabditis elegans with 20 samples.

Results

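The animals described here are nhr-131 mutant and wild-type C. elegans (N2, by the names of the deposited columns) that received only the solvent DMSO, so that the genotype is compared without F17, the compound under study. The members are the 10 DMSO libraries of the deposited count table, 5 from nhr-131 mutants and 5 from wild type, out of 20 libraries in all. Cultures in liquid were started with synchronized L1 larvae, the first larval stage, and whole L4 animals, the last larval stage, were taken after 4 h in 0.1% DMSO. The other 10 libraries, 5 of each genotype, came from L4 animals given 2.5 µM F17 for the same time. They enter here because 1 model was fitted to all 20 libraries and as a separate set in which each genotype difference could be read again. F17 is known here only by its code name. The labels do not name the nhr-131 allele or say how the strain was made, and the design text calls the 5 libraries of a group independent biological replicates.

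Nuclear hormone receptors are transcription factors with a DNA-binding domain and a pocket that in many of them binds a small lipid-like molecule. Nematodes carry a greatly enlarged family, most of it related to the vertebrate receptor HNF4. Several members in C. elegans are known to act in fat metabolism and in the response to foreign compounds, where their targets include cytochrome P450 and conjugating enzymes of the intestine and the hypodermis. The comparison in DMSO therefore asks what animals of the nhr-131 strain express differently from wild type when no F17 is present.

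Few genes were called. Of 13795 genes tested, out of 28301 in the table, 4 were called in nhr-131 against wild type (0.0290%), 1 of them higher (0.00725%) and 3 lower (0.0217%). A gene was called when edgeR's quasi-likelihood test gave an adjusted p, by the Benjamini-Hochberg method over all tested genes, under 0.05. The 3 genes that fell were nhr-131 itself and the neighbouring genes ZK228.3 and ZK228.4, and the gene that rose was W02G9.3. At an unadjusted p under 0.05 there were 575 genes (4.17%), 305 higher (2.21%) and 270 lower (1.96%) in nhr-131. The values of all 5 mutant libraries lay outside the range of the 5 wild-type libraries for 121 genes (0.877%), above it for 68 (0.493%) and below it for 53 (0.384%). Levels are given as CPM, the counts of a gene per 1000000 counts of its library, scaled by the trimmed mean of M values (TMM), and the log2 fold change is that of nhr-131 over wild type, with its standard error (SE).

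Total counts ran between 12836432 and 23618692 in the nhr-131 libraries and between 14834464 and 23150429 in the wild-type libraries. Ribosomal RNA genes took 3.75% to 27.5% of the counts in nhr-131 libraries and 2.91% to 23.9% in wild-type libraries. Libraries are told apart by the letters a to e of the deposited columns, which name a library and pair none. Library c of nhr-131 and libraries a and c of wild type stood apart: on the first component of variation within the groups, which held 57.4% of it, they lay at -84.5, -67.7 and -92.5, with the other 7 between -9.68 and 68. These 3 also had the lowest scores (mean z-score) over 11 genes that switch on between the L4 stage and the adult, at -1.20, -0.833 and -0.613, while the mean score was -0.0394 ± 0.790 in nhr-131 and -0.309 ± 0.490 in wild type (SD, n = 5 each). The yolk protein gene vit-6, in that list, had 4.05 CPM in nhr-131 library c and 41.5 and 27 CPM in wild-type libraries a and c, against 322 to 1113 CPM in the other 7 libraries. Where leaving out these 3 libraries moved a result by much, the value without them stands beside it.

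The mutated gene was checked first. nhr-131 had 0, 0.0677, 0.126, 0.157 and 0.236 CPM in nhr-131 libraries a to e, against 7.37, 9.08, 7.70, 8.13 and 7.22 CPM in wild-type libraries a to e. The mutant libraries held 11 of its reads in all and the wild-type libraries 752, so that every mutant library lay far below every wild-type library and each library matched the genotype of its label. The mutant level was 1.61% of the wild-type level (95% exact interval 0.801% to 2.90%, counting error only). The log2 fold change was -5.93 (SE 0.46, adjusted p = 2.85e-07, edgeR). An exact two-sided permutation test of log2 CPM gave p = 0.00794, the smallest that the 252 splits of 5 against 5 allow. The sources used here do not say which part of the gene is changed in the mutant, and these reads cannot be placed along the gene.

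ZK228.4, a gene with no given name, was the gene with the lowest p. It had 0, 0, 0, 0.0394 and 0.157 CPM in nhr-131 libraries a to e, against 48.2, 44.4, 37.6, 41.2 and 51.3 CPM in wild-type libraries a to e. These are 3 reads in the 5 mutant libraries and 4223 in the 5 wild-type libraries, and 3 mutant libraries held none. The mutant level was 0.0783% of the wild-type level (95% exact interval 0.0161% to 0.229%), and the fitted log2 fold change, which for so few reads depends on the prior count, was -10.08 (SE 0.48, adjusted p = 1.99e-10, edgeR).

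ZK228.3 lies next to it on chromosome V. It had 0, 0.135, 0, 0.118 and 0 CPM in nhr-131 libraries a to e, against 41.8, 22.8, 36.2, 19.5 and 34 CPM in wild-type libraries a to e. The groups did not overlap here either: 5 reads stood against 3024, and the mutant level was 0.182% of the wild-type level (95% exact interval 0.0591% to 0.426%). The fitted log2 fold change was -8.93 (SE 0.53, adjusted p = 5.44e-09, edgeR). Relative to wild type, the mutant levels of both genes were below that of nhr-131 itself, and the counting intervals did not overlap.

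W02G9.3, which RefSeq's gene table names thum-1, went the other way. It had 8.85, 13.9, 12.1, 13.3 and 14.5 CPM in nhr-131 libraries a to e, against 0.679, 0.313, 1.53, 0.761 and 1.13 CPM in wild-type libraries a to e. The lowest mutant library was above the highest wild-type library, with 1109 reads against 92 in the groups. The gene rose by 3.79 on the log2 scale (SE 0.29, adjusted p = 2.49e-07, edgeR). It averaged 12.5 ± 2.24 CPM in nhr-131 and 0.883 ± 0.465 CPM in wild type (SD, n = 5 each).

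**Figure D1:**
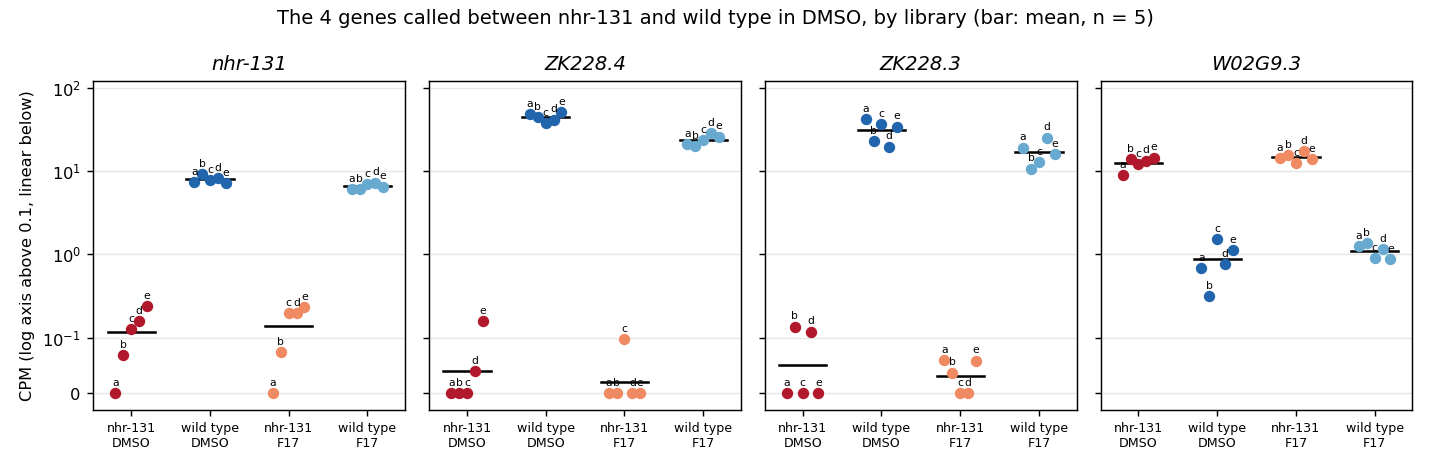
CPM of the 4 called genes in each library (points, with library letters; bars, group mean, n = 5), nhr-131 left of wild type, for DMSO and then F17; the axis is logarithmic above 0.1 CPM and linear below it. nhr-131, ZK228.4 and ZK228.3 lie below 0.3 CPM in every mutant library and above 7 CPM in every wild-type DMSO library, and W02G9.3 lies at 8.85 to 14.5 CPM in nhr-131 and at 0.313 to 1.53 CPM in wild type.

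The same 4 genes were called, in the same direction, between the F17 libraries of the 2 genotypes, which share no library with the DMSO comparison, although the variance model was fitted to both. In F17, nhr-131 averaged 0.139 ± 0.0986 CPM in mutants and 6.56 ± 0.543 CPM in wild type (SD, n = 5 each), a log2 fold change of -5.50 (adjusted p = 2.17e-07, edgeR). ZK228.4 had 2 reads in the 5 mutant F17 libraries and 2355 in the 5 wild-type F17 libraries. ZK228.3 had 3 reads in the mutant F17 libraries and 1640 in the wild-type F17 libraries. W02G9.3 averaged 14.6 ± 1.86 CPM in nhr-131 with F17 and 1.10 ± 0.212 CPM in wild type with F17 (log2 fold change 3.73, adjusted p = 1.12e-07, edgeR). None of the 4 genotype differences was called as changing with F17 (adjusted p = 0.9998 for each, edgeR), where 34 genes in all were (0.246%).

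All 4 called genes lie on chromosome V, by RefSeq's gene table of assembly WBcel235, in which 13517 of the tested genes were found. Chromosome V held 2675 of them (19.8%). In the order of tested genes along it, nhr-131 was number 54, W02G9.3 number 270, and ZK228.3 and ZK228.4 were numbers 2402 and 2403, near the other end. At an unadjusted p under 0.05 stood 133 genes of chromosome V (4.97%), 103 of the X chromosome (5.38%) and 3.29% to 3.89% of the tested genes on each of chromosomes I to IV. Of the 10 uncalled genes of lowest p, given below, oac-6, ugt-35 and cyp-29A3 also lie on chromosome V, at numbers 2243, 1376 and 4. With the 4 called genes this makes 7 on chromosome V, against 0 to 2 on each other chromosome. Between the genotypes in F17, 59 genes of chromosome V were called (2.21%), the largest share of any chromosome. Chromosome II came next, with 32 of 2286. The cause of these shares was not tested. Whether the strains differ at other places of the genome was not tested. Genotype and strain go together here, so a difference due to nhr-131 and one due to another place cannot be told apart.

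Genes beside nhr-131 were looked at next, since it sits in a region rich in nhr genes. Among the 50 tested genes on each side of it edgeR called 0 of 100, with 3 at an unadjusted p under 0.05 (DESeq2 called 1, cyp-29A3), log2 fold changes between -2.08 and 1.14 and a median of -0.044. Of the 21 nhr genes among them 0 were called, and their log2 fold changes ran between -0.66 and 0.81. The tested gene on one side, nhr-106, had 6.17 ± 1.04 CPM in nhr-131 and 6.31 ± 1.89 CPM in wild type, R11G11.6, the tested gene on the other side and the one with the largest rise of the 100, 0.595 ± 0.523 CPM in nhr-131 and 0.284 ± 0.215 CPM in wild type (unadjusted p = 0.155), and nhr-210, next after it, 5.70 ± 1.43 CPM in nhr-131 and 5.86 ± 1.56 CPM in wild type (SD, n = 5 each). The 3 genes at an unadjusted p under 0.05 were cyp-29A3, ZK6.6 and fbxa-72, an F-box gene that had 65.9 ± 9.69 CPM in nhr-131 and 97.1 ± 16.4 CPM in wild type, without overlap (log2 fold change -0.56, SE 0.15, unadjusted p = 0.00164). In F17 the log2 fold changes of these 3 were -2.08, -1.37 and -0.035, in that order. Only cyp-29A3 was called there (adjusted p = 0.0449, 0.330 and 0.922, edgeR).

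**Figure D2:**
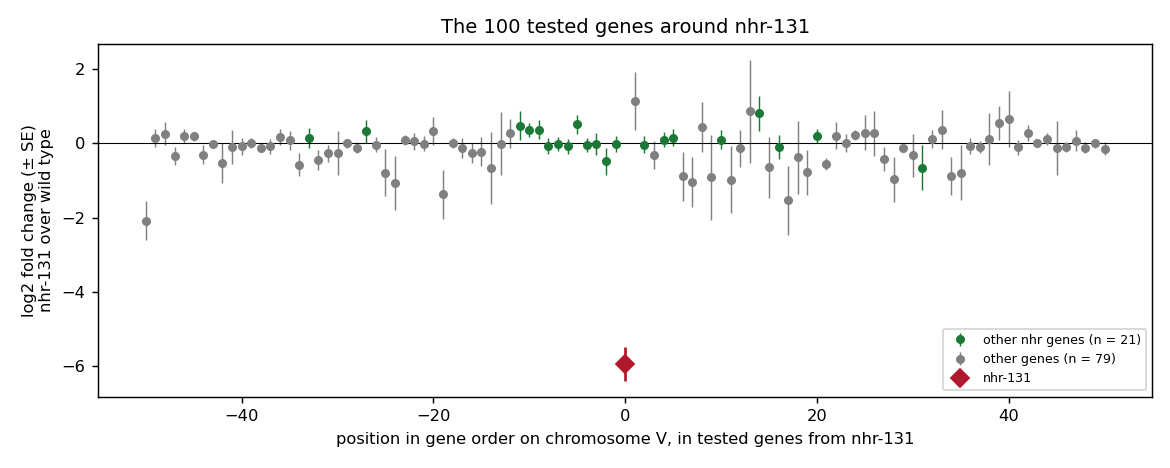
Log2 fold change of nhr-131 over wild type in DMSO (points, with SE) for the 100 tested genes around nhr-131, by their place in the gene order of chromosome V; green points are the 21 other nhr genes and the red diamond is nhr-131. nhr-131 stands alone at -5.93, and the others lie between -2.08 and 1.14.

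The surroundings of the other called genes were taken after their values had been seen. Beside ZK228.3 and ZK228.4, the next tested gene on one side, Y51A2D.18, had 17.8 ± 6.02 CPM in nhr-131 and 25.2 ± 12.2 CPM in wild type. The gene after it, slo-1, which encodes a large-conductance potassium channel, had 23.8 ± 3.16 CPM in nhr-131 and 26.1 ± 2.86 CPM in wild type (SD, n = 5 each). The 3 nearest tested genes on the other side, ZK262.3, ZK262.2 and Y51A2B.5, averaged below 2 CPM in both groups, and none of the flanking genes was called. Among genes too low to be tested, srw-82, of a chemoreceptor family and 6 genes before ZK228.3 in the table's gene order, had 0 reads in each of the 10 mutant libraries, DMSO and F17 alike. In wild type it had 8, 8, 1, 20 and 9 reads in DMSO libraries a to e and 2, 6, 13, 3 and 15 reads in F17 libraries a to e. With 3 reads over the mutant DMSO group as the floor, it was at least 13.9-fold lower in nhr-131. In the whole table, 4 genes had reads in every wild-type DMSO library and none in a mutant DMSO library, srw-82, T06E6.15, linc-135 and linc-60, and of these srw-82 alone also had none in the mutant F17 libraries. Beside W02G9.3, the tested neighbours kel-8 (64.9 ± 19.2 CPM in nhr-131, 57.0 ± 22.1 CPM in wild type) and Y45G12B.3 (40.4 ± 4.98 CPM in nhr-131, 35.6 ± 6.64 CPM in wild type) did not pass the test. The kit keeps strand, but the sources used here do not state the strand setting of the counting, and reads of overlapping or antisense genes cannot be told apart.

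Below the 4 called genes came 10 that did not pass edgeR's test, taken by lowest p. DESeq2, run as an alternative, called 5 of them in DMSO, namely oac-6 (adjusted p = 0.000144), gst-8 (0.00442), cyp-29A3 (0.00444), mppa-1 (0.00444) and C32H11.6 (0.00864). For gst-8 the difference lay mostly in wild-type libraries a and c, as given below. oac-6, of a family of predicted acyltransferases, had 19.5, 25.6, 11.2, 19.7 and 21.1 CPM in nhr-131 libraries a to e, against 6.01, 8.30, 4.64, 7.13 and 11.5 CPM in wild-type libraries a to e. Only the lowest mutant library, c, reached down into the wild-type range, where library e was highest. Its log2 fold change was 1.37 (SE 0.25, adjusted p = 0.0826, edgeR). In F17, oac-6 was called, with 29.7 ± 3.77 CPM in nhr-131 and 6.91 ± 2.26 CPM in wild type (SD, n = 5 each; log2 fold change 2.10, adjusted p = 6.34e-05, edgeR). The DMSO and F17 differences of oac-6 were not called as different (adjusted p = 0.9998, edgeR).

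Several of the 10 are enzymes of detoxification. ugt-35, a UDP-glucuronosyltransferase, which attaches sugars to small molecules, had 0.0941, 0, 0.0421, 0 and 0.0787 CPM in nhr-131 libraries a to e, against 0.679, 0.391, 0.314, 0.570 and 0.282 CPM in wild-type libraries a to e. These were 3 reads against 43, with no overlap, and 7.69% of the wild-type level (95% exact interval 1.53% to 24%; log2 fold change -3.41, adjusted p = 0.118, edgeR). cyp-29A3, a cytochrome P450, had 0, 0.609, 0.464, 0.905 and 0.787 CPM in nhr-131 libraries a to e, against 3.24, 1.49, 3.38, 2.14 and 1.80 CPM in wild-type libraries a to e. The libraries did not overlap (log2 fold change -2.08, SE 0.51, adjusted p = 0.674, edgeR). In F17 both were called lower in nhr-131, ugt-35 with a log2 fold change of -3.23 (adjusted p = 0.00121, edgeR) and cyp-29A3 with one of -2.08 (adjusted p = 0.0449, edgeR). Members of the ugt and cyp families have near copies, and how reads shared between copies were counted is not given in the sources used here.

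gst-8, a glutathione S-transferase gene, showed another pattern. It had 0.188, 0, 0, 0.118 and 0.0787 CPM in nhr-131 libraries a to e, against 2.14, 0.0783, 2.24, 0.333 and 0.226 CPM in wild-type libraries a to e. Wild-type libraries a and c were high and the other 3 close to the mutant range. The log2 fold change was -3.81 (SE 0.82, adjusted p = 0.339, edgeR), and -1.23 without the 3 libraries that stood apart.

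Among the rest of the 10, mppa-1, which encodes the alpha subunit of the mitochondrial processing peptidase, had 61.5 to 78.0 CPM (median 64) in nhr-131 and 49.1 to 56.4 CPM (median 54.5) in wild type. The groups did not overlap, at a log2 fold change of only 0.35 (SE 0.08, adjusted p = 0.488, edgeR). mua-6, an intermediate filament gene of the hypodermis, had 126 to 198 CPM in nhr-131 and 213 to 240 CPM in wild type, also apart (log2 fold change -0.47, SE 0.12). The hedgehog-related gene grd-14 had 36.8 to 138 CPM in nhr-131, with library c the highest by far, and 26.5 to 33.2 CPM in wild type (log2 fold change 1.17, SE 0.29, and 0.61 without the 3 libraries that stood apart). E02H1.2, eral-1 in RefSeq's table, had 14.5 to 15.6 CPM in nhr-131 and 9.31 to 13.3 CPM in wild type (log2 fold change 0.52, SE 0.12), and F29B9.8 had 42.4 to 63.2 CPM in nhr-131 and 26.1 to 39.8 CPM in wild type (log2 fold change 0.70, SE 0.17). In F17, mppa-1 and mua-6 were called in the same direction (log2 fold changes 0.32 and -0.50, adjusted p = 0.0483 and 0.0439, edgeR). There grd-14, E02H1.2 and F29B9.8 were not called (0.86, 0.23 and 0.38, adjusted p = 0.165, 0.378 and 0.301, edgeR). C32H11.6 had 0.471, 0.813, 1.26, 0.984 and 1.10 CPM in nhr-131 libraries a to e, against 0.261, 0.157, 0.157, 0 and 0.113 CPM in wild-type libraries a to e (log2 fold change 2.72, adjusted p = 0.339, edgeR). In F17 the order of the group means was the opposite for C32H11.6, 0.365 ± 0.0997 CPM in nhr-131 and 1.002 ± 0.678 CPM in wild type (SD, n = 5 each). The F17 difference by itself was not called (adjusted p = 0.208, edgeR), and the libraries overlapped there. The change of the genotype difference was called (-4.16 on the log2 scale, adjusted p = 0.0285, edgeR).

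In F17, 177 genes were called between the genotypes (1.28%), 74 higher (0.536%) and 103 lower (0.747%) in nhr-131, of which the 4 DMSO calls are 2.26%, and the libraries of the genotypes did not overlap for 533 genes (3.86%). The count ran between 83 and 449 with 1 library left out, at 449 without library c of nhr-131 with F17 and at 83 without library d. Without the 6 libraries of low L4-to-adult score, 3 of them in DMSO and 3 in F17, it was 1019, with 650 higher and 369 lower, so that the balance of directions turned, as it did without the 3 of these in DMSO (164 higher, 148 lower), without library c of nhr-131 with F17 (243 of the 449 higher) and with DESeq2 (296 higher, 240 lower). The DMSO libraries gave the same sign for 147 of the 177 (83.1%), against 9584 of all 13795 tested genes (69.5%). At an unadjusted p under 0.05 in DMSO with the same sign stood 69 of the 177 (39.0%), against 493 of all tested genes (3.57%). In F17 the mean L4-to-adult score was 0.322 ± 0.716 in nhr-131 and 0.0269 ± 0.700 in wild type (SD, n = 5 each). It was thus higher in nhr-131 in both sets, -0.0394 against -0.309 in DMSO. The part of this score in the shared signs was not tested. The genotype difference changed with F17, by the test of the change itself, for 33 of the 177. The plot of both comparisons shows the 4 genes close to the line of equal difference, and cyp-13A4, ugt-20 and others far below it.

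**Figure D3:**
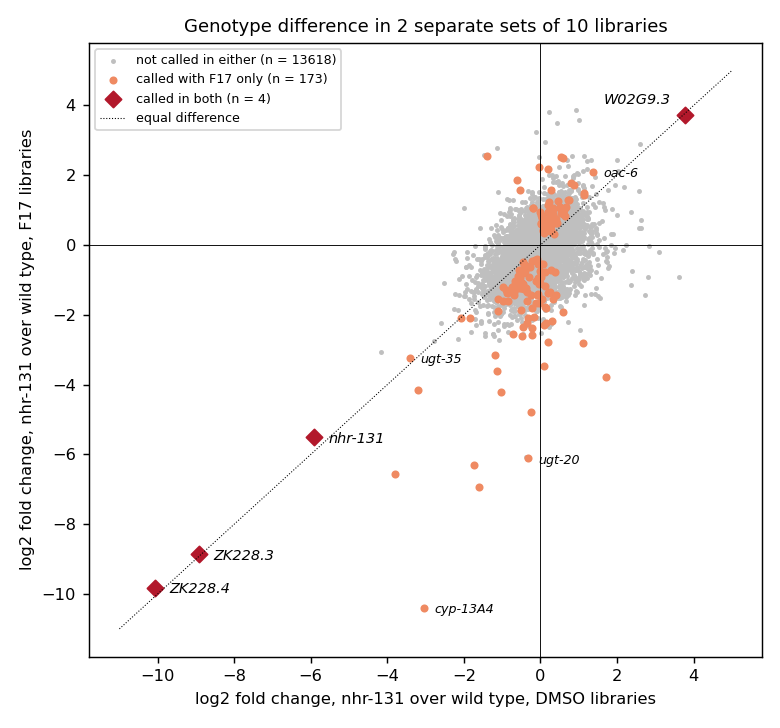
Log2 fold change of nhr-131 over wild type in the F17 libraries (vertical) against that in the DMSO libraries (horizontal), 1 point per tested gene. The 4 genes called in both sets (diamonds) lie close to the dotted line of equal difference, from -10.08 to 3.79 in DMSO, and 173 genes were called with F17 only.

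A list of 9 genes was known from earlier results of these data to be induced less by F17 in nhr-131, and their levels in DMSO are given as a description. ZK742.3 had 9.44 to 11.2 CPM in the 5 nhr-131 libraries, against 64.2, 11.6, 59.5, 10.03 and 12.4 CPM in wild-type libraries a to e. ugt-19 had 9.05 to 14.2 CPM in nhr-131, against 79.4, 10.5, 72.6, 9.22 and 12 CPM in wild-type libraries a to e. cyp-13A4, a cytochrome P450, had 0.433 to 1.08 CPM in nhr-131, against 15.2, 1.02, 11.6, 0.333 and 1.01 CPM in wild-type libraries a to e. In each case wild-type libraries a and c alone were high, and the other 3 wild-type libraries lay within or next to the mutant range. cyp-13A5 had 1.48 to 2.64 CPM in nhr-131, against 9.25, 1.64, 7.51, 0.998 and 1.58 CPM in wild-type libraries a to e, the same pattern, and cyp-13A6, from a list of 16 F17-responsive genes, had 0.472 to 1.56 CPM in nhr-131, against 7.84, 2.58, 7.11, 0.903 and 0.902 CPM in wild-type libraries a to e.

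These wild-type levels were small beside those in F17. In libraries a and c, cyp-13A4 stood at 0.930% and 0.709% of its mean of the wild-type F17 libraries, ZK742.3 at 4.26% and 3.95%, ugt-19 at 6.58% and 6.01%, and cyp-13A5 at 13.4% and 10.9%. nhr-131 library c, which stood apart with them, had 0.632 CPM of cyp-13A4, 10.5 CPM of ZK742.3 and 9.27 CPM of ugt-19, within the range of the other mutant libraries. Without the 3 libraries, the DMSO log2 fold change of cyp-13A4 was -0.08 in place of -3.04, that of ZK742.3 -0.14 in place of -1.61 and that of ugt-19 0.12 in place of -1.73, none of them called in either fit. Likewise cyp-13A5 was at 0.66 in place of -1.04 and cyp-13A6 at -0.33 in place of -1.84. ugt-20 had 1.98 to 4.26 CPM in nhr-131 and 5.85, 3.29, 4.87, 3.23 and 2.59 CPM in wild-type libraries a to e, so that here too libraries a and c alone lay above the mutant range, by less. swt-6 had 1.04 to 3.05 CPM in nhr-131, against 2.93 and 4.36 CPM in wild-type libraries a and c and 0.704 to 1.58 CPM in the other 3. Its log2 fold change was 0.67 without the 3 libraries in place of -0.24. The 9 genes were taken from results that used these same libraries. Over all tested genes, libraries a and c were the 2 highest of wild type for 33.7%. Among the 9 genes they were the highest of wild type for 6. They were above all mutant libraries as well for 5, a share that was not taken over all genes. For the other 3 they were not: C53B4.3 had 18.4 to 27 CPM in nhr-131 and 17.9 to 21.5 CPM in wild type, F12E12.11 had 1.56 to 4.33 CPM in nhr-131 and 1.65 to 3.83 CPM in wild type, and cyp-13A8 had 0.253 to 0.865 CPM in nhr-131 and 0 to 0.380 CPM in wild type. The 16 F17-responsive genes, listed with earlier results of these data known, had a median log2 fold change of -0.10. At an unadjusted p under 0.05, 0 were higher and 3 lower in nhr-131 (18.8% lower, against 1.96% of all tested genes). The 3 include cyp-13A6, which was high in wild-type libraries a and c. Of the 16, cyp-35C1, a cytochrome P450, had 24.4 to 41.5 CPM in nhr-131 and 18.6 to 28.3 CPM in wild type. The ABC transporter gene pgp-9 had 46.9 to 80 CPM in nhr-131 and 45.4 to 89.2 CPM in wild type. Of 106 genes called higher with F17 in wild type, libraries a and c were the 2 highest wild-type DMSO libraries for 38 (35.8%), against 4643 of all tested genes (33.7%). What sets these 2 libraries apart was not tested.

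**Figure D4:**
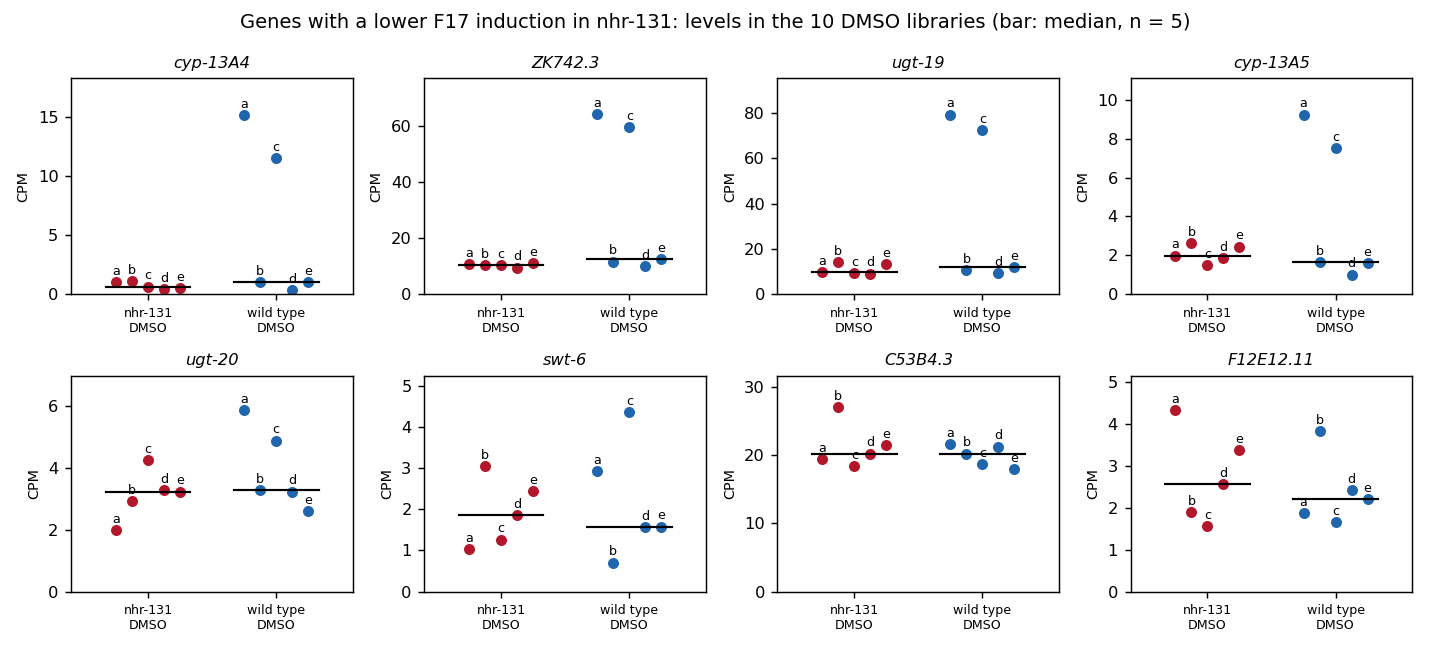
CPM in the 10 DMSO libraries of 8 of the 9 genes whose F17 induction was lower in nhr-131 (points with library letters; bars, group median, n = 5; cyp-13A8, under 1 CPM throughout, is not drawn), nhr-131 left of wild type. Wild-type libraries a and c are far above all others for cyp-13A4, ZK742.3, ugt-19 and cyp-13A5, and the groups overlap for C53B4.3 and F12E12.11.

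Beyond single genes, 47 lists covering detoxification, metabolism, defence, cuticle, germline and tissues held 1831 tested genes, and nhr-131 was the 1 member that edgeR called. All tested genes had a median log2 fold change of -0.0047, with quartiles of -0.213 and 0.166, and 2.21% of them were higher and 1.96% lower at an unadjusted p under 0.05, the shares against which the counts of the lists are to be read. Of the 61 cytochrome P450 genes, 2 were higher (3.28%) and 7 lower (11.5%) in nhr-131 at that p, with a median of -0.04. DESeq2 called cyp-13A4 and cyp-29A3 among them. Of the 7 lower, cyp-13A4, cyp-13A5 and cyp-13A6 had their highest wild-type levels in libraries a and c. Without the 3 libraries that stood apart, the differences of cyp-13A4 and cyp-13A6 shrank and that of cyp-13A5 turned its sign, as given above. For cyp-29A3 the log2 fold change was -1.57 or lower under every other setting of the analysis. Its libraries did not overlap, nor did those of cyp-13A9 and cyp-33C7, also among the 7. cyp-13A9 had 0 to 0.203 CPM in nhr-131 and 0.285 to 1.41 CPM in wild type (log2 fold change -3.20). In F17, cyp-13A9 was called lower in nhr-131 (-4.16, adjusted p = 0.00678, edgeR). cyp-33C7 had 4.71 to 5.89 CPM in nhr-131 and 5.95 to 8.08 CPM in wild type (-0.42). The last of the 7, cyp-33C2, overlapped (-1.18). The most abundant of the 61, cyp-37A1, had 52.3 ± 11.9 CPM in nhr-131 and 42.7 ± 20.9 CPM in wild type (SD, n = 5 each). The 60 UDP-glucuronosyltransferase genes had 2 higher (3.33%) and 3 lower (5%) at that p and a median of -0.04, and the 35 glutathione S-transferase genes 0 higher and 1 lower (2.86%), gst-8, which DESeq2 also called, and a median of 0.07. For gst-8, and for ugt-19 among the 3 lower, wild-type libraries a and c were the high ones. Without the 3 libraries that stood apart, the log2 fold changes of gst-8 and ugt-19 were -1.23 and 0.12.

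The nuclear hormone receptor family, to which nhr-131 belongs, held no other call. Of 185 tested, 7 were higher (3.78%) and 1, nhr-131, lower (0.541%) at an unadjusted p under 0.05, and the median was 0.07. For 124 of them the 95% interval of the log2 fold change lay within -1 and 1, that is, within a 2-fold difference. nhr-114, the most abundant, had 319 ± 107 CPM in nhr-131 and 254 ± 108 CPM in wild type, and nhr-97 had 130 ± 19.5 CPM in nhr-131 and 158 ± 22.7 CPM in wild type (SD, n = 5 each). Named after its values were seen, nhr-6, an ortholog of the NR4A receptors needed for spermatheca development, had 12.3 ± 3.49 CPM in nhr-131 and 6.51 ± 2.61 CPM in wild type (log2 fold change 0.92, SE 0.32, unadjusted p = 0.0103).

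Cuticle and molting genes, which build and renew the larval exoskeleton, held no call. Of 139 cuticle collagen genes, 10 were higher (7.19%) and 9 lower (6.47%) in nhr-131 at an unadjusted p under 0.05, against 2.21% and 1.96% of all tested genes, and 0 were called by edgeR or DESeq2. Their median was 0.28, and -0.042 without the 3 libraries that stood apart. The most abundant collagen genes, sqt-3 and dpy-4, had log2 fold changes of 0.24 (SE 0.55) and 0.47 (SE 0.51). Of 47 molting genes 1 was higher and 6 lower at that p, among them mlt-11, a protease inhibitor needed for molting, at 1201 ± 462 CPM in nhr-131 and 1963 ± 406 CPM in wild type, just without overlap (unadjusted p = 0.0235). Of 60 hedgehog-related and patched-related genes, 9 were higher (15%) and 5 lower (8.33%), with a median of 0.31, and of -0.088 without the 3 libraries. These genes cycle with the larval molts, and they were measured in groups whose libraries spread widely on the score of the L4-to-adult genes; its part in the differences was not tested.

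**Figure D5:**
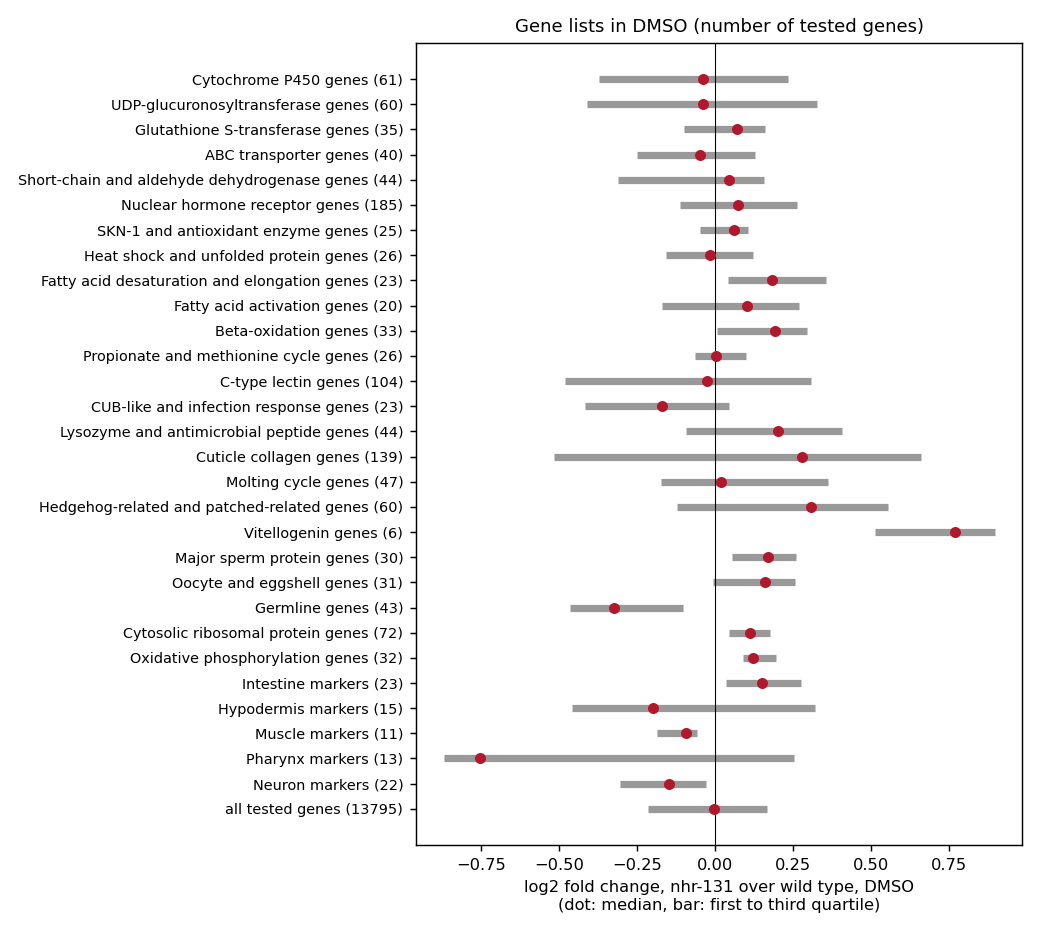
Median (dot) and the range between the quartiles (bar) of the log2 fold change of nhr-131 over wild type in DMSO for 29 gene lists and for all tested genes, with the number of tested genes in brackets. The vitellogenin genes at 0.77 and the pharynx markers at -0.75 are the outermost, the germline genes lie at -0.32, and the other medians lie between -0.20 and 0.31; without the 3 libraries that stood apart the pharynx markers lie at 0.24 and the germline genes at 0.55, on the other side of 0, and the vitellogenin genes at 0.40.

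Defence and metabolic lists held no called gene by edgeR either. Of the C-type lectin genes tested, 4 were higher and 4 lower at an unadjusted p under 0.05 (3.85% each, against 2.21% and 1.96% of all tested genes; median -0.03). Of 23 CUB-like and infection response genes, 0 were higher and 4 lower (17.4%; median -0.17), and DESeq2 called dod-22, which had 1.19 ± 0.718 CPM in nhr-131 and 3.14 ± 0.756 CPM in wild type (SD, n = 5 each). Of 44 lysozyme and antimicrobial peptide genes, 3 were higher (6.82%) and 0 lower (median 0.20). Of 33 beta-oxidation genes, which break down fatty acids, 3 were higher (9.09%) and 2 lower (6.06%; median 0.19, and 0.027 without the 3 libraries), and acdh-1, the most abundant, had 3643 ± 795 CPM in nhr-131 and 3184 ± 1204 CPM in wild type. fasn-1, the fatty acid synthase gene, had 757 ± 81.6 CPM in nhr-131 and 1243 ± 419 CPM in wild type (log2 fold change -0.72, SE 0.30, unadjusted p = 0.0285). Without 6 libraries of low L4-to-adult score, 3 of them in DMSO, edgeR called clec-52 higher (log2 fold change 1.10, adjusted p = 0.0170), lys-3, a lysozyme gene, higher (1.70, adjusted p = 0.0413) and dod-24, of the CUB-like list, lower (-1.37, adjusted p = 9.90e-05). In that setting it also called oac-6 and oac-14 higher (1.25 and 1.16) and F09C8.1 and ZK105.1 lower (-1.20 and -1.05). With all libraries, clec-52 had 49.4 ± 23 CPM in nhr-131 and 19.6 ± 10.5 CPM in wild type, and dod-24 had 31.1 ± 10.2 CPM in nhr-131 and 68 ± 32.2 CPM in wild type (SD, n = 5 each), neither called. The 72 cytosolic ribosomal protein genes, with 0 at that p in either direction, had a median of 0.11, and the interval of 63 of them lay within a 2-fold difference.

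Markers of the main tissues were present in both groups. All 23 intestine markers, all 11 muscle markers, 22 of 23 neuron markers and 13 of 14 pharynx markers in the table were high enough to be tested, and none was called by edgeR or DESeq2. Summed levels overlapped: the intestine markers made 14687 to 40711 CPM in nhr-131 and 15531 to 34001 CPM in wild type, lowest in library c of each. Muscle markers made 13338 to 16997 CPM in nhr-131 and 14310 to 18652 CPM in wild type, and pharynx markers 428 to 882 CPM in nhr-131 and 377 to 1550 CPM in wild type, highest in library c of each. Major sperm protein genes made 45.1 to 443 CPM in nhr-131 and 157 to 329 CPM in wild type, and the 6 vitellogenin genes 11.6 to 2011 CPM in nhr-131 and 70.6 to 1402 CPM in wild type. At an unadjusted p under 0.05 the 15 tested hypodermis markers had 0 higher and 2 lower (13.3%, against 1.96% of all tested genes). These were wrt-10 and dpy-7, the latter without overlap. The intestine and neuron markers had 0 higher and 1 lower each (4.35% and 4.55%), cpr-4 and unc-25, the latter without overlap. The pharynx markers had 2 higher (15.4%, against 2.21% of all tested genes) and 0 lower, although their median log2 fold change was -0.75. The vitellogenin genes had 0 in either direction at a median of 0.77. Without the 3 libraries that stood apart these medians were 0.24 for the pharynx markers, with the sign turned, and 0.40 for the vitellogenin genes. The muscle markers had a median log2 fold change of -0.09, with 0 of 11 above 0, against 6781 of all 13795 tested genes. Under the other settings of the analysis the muscle marker median lay between -0.23 and -0.025. Of 34 muscle filament genes, 3 were above 0 (median -0.12). In whole animals, fewer cells of a type and less RNA per cell cannot be told apart.

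How much the data could have shown depended on the level of a gene. The median SE of the log2 fold change was 0.282, with quartiles of 0.166 and 0.517. The 95% interval lay within a 2-fold difference for 8106 genes (58.8%), among them 62 of 2129 genes under 1 CPM (2.91%), 1878 of 4257 genes at 1 to 8 CPM (44.1%), 4294 of 5171 at 8 to 64 CPM (83.0%) and 1872 of 2238 over 64 CPM (83.6%). For the remaining genes the interval reached a 2-fold difference or lay beyond it.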

How the data were processed

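RNA of whole L4 animals was made into poly(A) libraries with a directional kit, per the labels' protocols. The deposited values are whole read counts per gene (28301 genes, 20 libraries), made with TopHat2 and HTSeq per the submitters' processing notes. For tool versions, genome build, annotation and strand setting the entry is: not given in the sources used here. Hence coordinates are left out. The counts were not normalized, and no column was left out. Column names give genotype and treatment; their letters a to e could not be tied to the replicate numbers of the titles, and libraries are named by letter. No 2 libraries of a group were copies (lowest chi-square per degree of freedom 22.7 over 40 pairs). All p-values rest on the spread between the libraries of a group.

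The analysis used edgeR 4.0.16 under R 4.3.3 (limma 3.58.1; DESeq2 1.42.0 as an alternative). filterByExpr by group (minimum count 10) left 13795 genes; 10 row names read as dates and were kept as given. TMM factors and 1 robust quasi-likelihood model with 4 group means over 20 libraries (16 residual degrees of freedom) gave nhr-131 against wild type in DMSO, the same in F17, and the change between them. Benjamini-Hochberg adjusted p under 0.05 was the threshold, the SE was derived from the fold change and its F statistic (log2 fold change over the root of F), and CPM use TMM-scaled sizes. 3 counts equal 0.118 to 0.282 CPM in the DMSO libraries. Exact binomial intervals (95%) and floors cover counting error only. The 6 genes called only without the low-score libraries, clec-52, lys-3, dod-24, oac-14, F09C8.1 and ZK105.1, and R11G11.6 were named after their values were seen. The edgeR steps of the DMSO comparison were tested on simulated counts, drawn independently for each gene and library. These held no variation shared between genes, such as the first component within the groups, so its effect on the calls was not tested.

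The rule for named genes took nhr-131, the 12 largest called rises and falls (mean log2 CPM of at least 1), up to 4 called members of each list, called genes within 50 tested genes of nhr-131, up to 2 most abundant members of lists without a call, the 2 lists of F17 genes, and, with fewer than 10 calls, the 10 uncalled genes of lowest p. ZK6.6, fbxa-72, nhr-106, nhr-210, other genes beside called genes, untested genes, and the list members given for their unadjusted p or DESeq2 call were chosen after their values were seen. Members and lists were chosen with earlier results of these data known. Alternatives were other scalings, filters, tools, sets of libraries, the score as a covariate and the letter as a block. Gene names, chromosomes and gene order come from RefSeq's table of WBcel235.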

Additional observations from a re-analysis of the deposited data

Results flagged for a closer look

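In all, 48 groups of 5 libraries were examined. They covered the called genes, those of lowest p, the 9 genes of lower F17 induction in nhr-131, and cyp-13A6. In 3 groups a library lay far from the other 4 (gap over range above 0.710). How often chance gives such a gap in these groups, which share libraries, was not tested. grd-14 had 138 CPM in nhr-131 library c, against 36.8 to 56.6 CPM in the other nhr-131 libraries; this is the library with the lowest score over the L4-to-adult genes, and the part of that in the value was not tested. E02H1.2 had 13.3 CPM in wild-type library c and 9.31 to 10.3 CPM in the other wild-type libraries. ZK228.4 had 0.157 CPM in nhr-131 library e, which is 2 reads, and 0 to 0.0394 CPM in the other mutant libraries.

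C32H11.6 differed between the DMSO and F17 sets by the test of the difference itself: its log2 fold change of nhr-131 over wild type was -1.44 in F17 and 2.72 in DMSO, a difference of -4.16 (adjusted p = 0.0285, edgeR). The gene was taken up for its low p in DMSO, and its F17 difference by itself was not called (adjusted p = 0.208, edgeR), with overlapping libraries. Its levels stayed under 2 CPM in every library. The chemoreceptor gene srw-82, too low to be tested, had 0 reads in the nhr-131 DMSO libraries and 46 in those of wild type, in all 5 of which it was read.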

How the results depend on the processing

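The same 4 genes were called in nhr-131 against wild type in DMSO, in the same direction, under each of 32 other settings (12 alternatives and each of the 20 libraries left out in turn). The count was 4 or 5 in all but 2 settings, 4 to 5 with 1 library left out; it was 11 when DESeq2 replaced edgeR (4 higher, 7 lower), and 11 (5 higher, 6 lower) without 6 libraries of low L4-to-adult score, namely c of nhr-131 and a and c of wild type in DMSO, and c of nhr-131 and a and d of wild type in F17. Of these 11, 9 with DESeq2 and 7 without the 6 libraries were also called in F17, and the genotype difference of 2 changed with F17 in each case. Without the 3 DMSO libraries of that set alone the count stayed 4. oac-6 was called in 9 of the 32 settings, with log2 fold changes of 1.23 to 1.58 and adjusted p of 0.000144 to 0.753 over all settings. The count of 177 in F17 became 358 with the score as a covariate, 312 without the 3 DMSO libraries, 1019 without the 6 and 536 with DESeq2, and ran between 83 and 449 with 1 library left out (83, 86 and 92 without d, b and a of nhr-131 with F17, 90 and 99 without b and d of wild type with F17, 449 without c of nhr-131 with F17); the cause was not tested. Some uncalled differences in DMSO turned their sign: ugt-19 (0.12 without the 3 and 0.12 without the 6 libraries), cyp-13A5 (0.66 and 0.67), swt-6 (0.67 and 0.66, and -0.46 to 0.15 with 1 library left out, 0.15 without wild-type library c), F12E12.11 (-0.026 without nhr-131 library a, to 0.41) and C53B4.3 (-0.0030 without nhr-131 library b, to 0.14). The medians of 12 of 47 lists kept their sign throughout (those of the pharynx markers, collagens, hedgehog-related and germline genes turned without the 3 libraries), and scalings moved the median of all genes by less than 0.1. The letters were not taken as pairs: libraries of the same letter correlated positively between the genotypes in DMSO for 4 of 5 letters (0.162 to 0.679) and negatively for a (-0.472), and only c and d correlated best with their own letter. With the letter as a replicate block, 5 genes were called in DMSO, oac-6 being added (adjusted p = 0.0275, edgeR), and 187 in F17. The fit of the 10 DMSO libraries alone gives no value for F17. Intervals were widest for genes under 1 CPM, where few excluded a 2-fold difference; the part of depth in this was not tested.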
